A study of Rattus norvegicus with 3 samples.

Results

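The natriuretic peptide system was followed in heart nuclei of dystrophic rats through 8 genes, chosen by name: the ligands Nppa, Nppb and Nppc, the processing enzymes Corin and Furin, and the receptors Npr1, Npr2 and Npr3. Each of the 8 was found among the 22250 genes of the count files. Nuclei from the heart apex, with parts of the septum and of both ventricles, had been sorted on DAPI and sequenced in droplets from rats of 12 months of age. The WT library came from wild-type rats, the BMD library from the R-BMDdel45-47 line, which carries an in-frame CRISPR/Cas9 deletion of Dmd exons 45 to 47 made in outbred Sprague Dawley rats, and the DMD library from the R-DMDdel52 line, which lacks Dmd exon 52. All 3 groups share age and tissue, and the strain of the DMD line is not given in the sources used here. Each genotype was represented by 1 library, so no test between genotypes was possible, and the number of animals behind a library is not given in the sources used here. All intervals below are 95% counting intervals (exact Poisson for summed counts, Clopper-Pearson for shares). They leave out the spread between animals. Those of summed counts also treat UMIs as independent and leave out the spread between nuclei.

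ANP (encoded by Nppa) and BNP (encoded by Nppb) are hormones that heart muscle releases when its wall is stretched, and they promote salt excretion and widen vessels. Corin, a protease on the cardiomyocyte surface, cleaves pro-ANP, while furin, a protease of the secretory pathway, cleaves pro-BNP and other precursors. Npr1 (guanylyl cyclase A) answers to ANP and BNP and Npr2 (guanylyl cyclase B) answers to CNP, the product of Nppc, and both make cGMP. Npr3 lacks the cyclase and removes all these peptides from the circulation.

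The libraries held between 19215994 and 21609238 unique molecular identifiers (UMIs, counts of distinct RNA molecules), and the barcodes with at least 500 UMIs, 25179 in all, were taken as nuclei. For WT, BMD and DMD in turn, the median nucleus held 1200, 1468 and 1190 UMIs. Libraries shared between 13 and 20 nuclear barcodes in pairs, and 0 barcodes in all 3. The targeted gene Dmd had 16463 counts per 1000000 UMIs of the class (CPM) in WT cardiomyocyte-like nuclei, against 20610 CPM in BMD ones and 19561 CPM in DMD ones. The gene total was thus not lower in the mutant libraries, and counts per exon were not analysed here. Clusters were named from marker lists that left out the 8 genes. They comprised 4611 cardiomyocyte-like nuclei (2031 WT, 1517 BMD and 1063 DMD), 7510 fibroblast-like, 5103 endothelial-like, 633 endocardial-like, 656 lymphatic-like, 1700 pericyte-like, 1829 macrophage-like, 1223 T or B cell-like, 282 monocyte-like and 131 Schwann-like nuclei, and 1501 nuclei stayed unnamed. The cardiomyocyte-like cluster raised 11 of its 11 markers (to at least 2 times their level in other nuclei), and the endocardial-like cluster raised 9 of 11, led by Nrg1, Cgnl1 and Smoc1, together with 10 endothelial markers. The pericyte-like cluster also raised 8 smooth muscle markers. The monocyte-like nuclei carried cardiomyocyte markers at 93.2% to 157% of their level in free RNA, and 42.2% of them were called doublets. They therefore entered no comparison between libraries apart from the Corin folds among the results flagged for a closer look.

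Nppa and Nppb were transcripts of the cardiomyocyte-like nuclei in all 3 libraries, and both stood far higher in the dystrophic libraries. Nppa (ENSRNOG00000008176) had 1070 UMIs in WT cardiomyocyte-like nuclei, or 168.5 CPM (158.6 to 178.9). The level was 895.7 CPM (872.9 to 918.8) in BMD and 887.5 CPM (858 to 917.9) in DMD. BMD was thus 5.31-fold above WT (4.98 to 5.68) and DMD 5.27-fold (4.92 to 5.65), and the direct DMD over BMD log2 ratio was -0.01 (-0.07 to 0.05). On CPM plus a pseudocount of 5, the scale used for all log2 ratios here unless stated, these were log2 ratios of 2.38 and 2.36. Both dystrophic libraries lay above WT without overlap of their intervals and could not be told from each other.

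Nppb (ENSRNOG00000008141) had 363.4 CPM (348.7 to 378.5) in WT, against 1163 CPM (1137 to 1190) in BMD and 867.5 CPM (838.3 to 897.5) in DMD. It stood 3.20-fold above WT in BMD (3.06 to 3.36) and 2.39-fold in DMD (2.26 to 2.52), with log2 ratios of 1.67 and 1.24. Unlike Nppa, Nppb differed in summed level between the dystrophic libraries, at a DMD over BMD log2 ratio of -0.42 (-0.48 to -0.36). The share of nuclei with an Nppb UMI did not differ in this way. With each nucleus thinned to 500 UMIs it was 30.9% (28.5% to 33.2%) in BMD and 31.4% (28.6% to 34.3%) in DMD. In BMD, 767 of the 7665 Nppb UMIs came from 1 nucleus of 16896 UMIs, while the next nucleus held 210. Without the top nucleus of each library, the Nppb level was 1050 CPM in BMD against 841.5 CPM in DMD and 356.5 CPM in WT, and the BMD log2 ratio was 1.54. In the background of all genes with at least 50 UMIs over both libraries, 4.6% stood at least 1.5-fold higher in BMD cardiomyocyte-like nuclei and 5.25% at least 1.5-fold lower, and in DMD the shares were 5.87% and 6.54%. Of the 6 members with enough UMIs there (Nppc and Npr1 fell short), 2 stood past 1.5-fold higher (Nppa and Nppb) and 1 lower (Furin) in BMD, and 3 stood higher (Nppa, Nppb and Npr3) in DMD. The median log2 ratio of these 6 was 0.13 in BMD and 0.55 in DMD, beside -0.05 and -0.04 over all genes. The members were chosen with earlier results of these data known. The study itself names Nppa and Nppb among its most upregulated genes. The counts and medians of members, here and in other classes, are therefore a description and not new support.

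**Figure D1:**
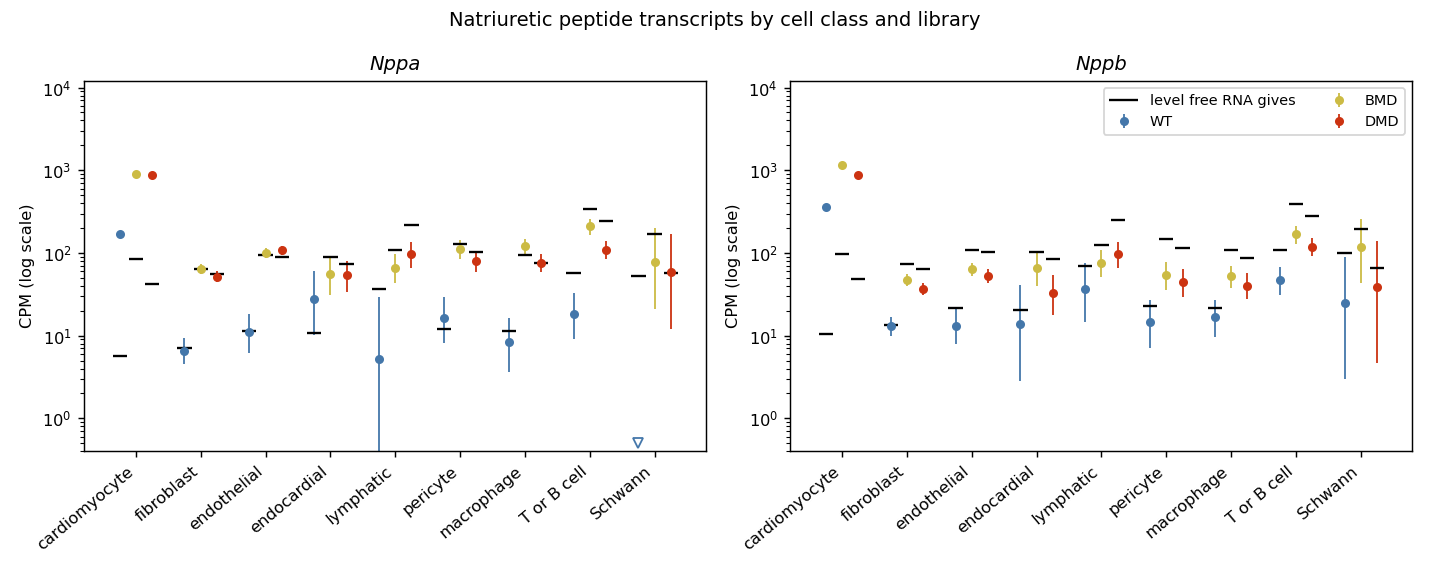
Nppa and Nppb in CPM (log axis) for 9 cell classes in the WT, BMD and DMD libraries. Points are levels with 95% Poisson intervals, open triangles mark 0 UMIs, and black dashes mark the level that free RNA alone would give. The cardiomyocyte-like points, from 168.5 to 895.7 CPM for Nppa, stand above the dashes, while most other classes lie at or below them.

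In the named classes other than the cardiomyocyte-like nuclei, both peptide transcripts mostly sat near or below the level given by free RNA. Free RNA is the RNA that leaks into droplets, and it was profiled from barcodes with at most 50 UMIs. In endothelial-like nuclei Nppa had 10.996, 100.6 and 107.9 CPM in the WT, BMD and DMD libraries, where free RNA alone would give 11.4, 94.2 and 90.3 CPM. In fibroblast-like nuclei it had 6.61, 64.4 and 51.8 CPM against 7.16, 64.5 and 56.3 CPM from free RNA. Nppb in endothelial-like nuclei, at 13.2, 63.8 and 53.2 CPM, was below its free RNA level of 21.4, 108 and 103 CPM. In endothelial-like nuclei the free RNA estimate thus lay near Nppa but above Nppb, so it is a rough guide only. The higher dystrophic values of both transcripts in these classes were not read as expression, and their source was not tested. Nppa exceeded the free RNA level beyond its interval in 2 pairs of class and library. It was at 120.9 CPM (98.3 to 147) against 93.6 CPM in BMD macrophage-like nuclei and 107.9 CPM (94.1 to 123) against 90.3 CPM in DMD endothelial-like nuclei. Cardiomyocyte-like nuclei were 20.2%, 22.0% and 12.9% of the nuclei of WT, BMD and DMD but held 82.4%, 80.6% and 71.9% of all Nppa UMIs and 83.2%, 88.3% and 74.6% of all Nppb UMIs. The unnamed nuclei held 10.1%, 8.51% and 13.1% of all Nppa UMIs and 9.73%, 4.79% and 13.9% of all Nppb UMIs.

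Nppa is the classical transcript of atrial muscle, and the tissue taken was ventricular, so atrial markers were read beside it. Myl7, the atrial light chain, had 8 UMIs in WT cardiomyocyte-like nuclei, 52 in BMD and 23 in DMD, or 1.26, 7.89 and 5.99 CPM. Sln (sarcolipin) had 0, 13 and 3 UMIs, and Bmp10 had 0, 3 and 0. Over the 7 listed atrial genes the summed level was 989, 997 and 826 CPM, nearly all of it Kcnj3. The 8 listed conduction system genes summed to 213, 171 and 181 CPM. Myl7 and Myl4 (3.47, 11.8 and 22.7 CPM) were thus higher in both dystrophic libraries. Dkk3, of the same list, was lower in both, at 69.6, 56.8 and 40.6 CPM. Kcnj3 stood at 914, 917 and 756 CPM. The listed atrial genes thus did not move one way, and their part in the peptide levels was not tested.

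Nppa and Nppb lie close together on rat chromosome 5, on the same strand. Windows of 30 bases from the 2 promoters are shown because the levels of both genes were higher in both dystrophic libraries and both windows hold the letters GATAA, the core read by GATA factors such as Gata4. They come from the RefSeq promoter table of build GRCr8, not from the rn6 build of the counts. Capitals mark GATAA and, in Nppb, GGAATG, the M-CAT element read by TEAD factors.
Nppa: gcttcgctggactGATAActttaaaagggc
Nppb: aGGAATGtgtctGATAAatcagaGATAAcc
The Nppa window lies at chr5:163712040-163712069 (plus strand), ending 115 bases before the start site. The Nppb window lies at chr5:163699876-163699905 (plus strand), ending 103 bases before its start site. On both strands, GATAA was found in 26.5% of the 33469 entries of the promoter table and GGAATG in 14.2%, and both together in 4.11%. These shares are over whole entries, from 250 bases before to 50 after a start site, and not over windows of 30 bases. Of the 6 members with such an entry (Npr2 and Furin had none), 2 held GATAA and 1 held GGAATG. Such matches describe letters and do not show binding.

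Nppc (ENSRNOG00000018854), which encodes the precursor of CNP, was almost undetected. It had at most 3 UMIs in any class of any library, and the cardiomyocyte-like nuclei held 3, 1 and 1 in the WT, BMD and DMD libraries. In endothelial-like nuclei, where vessels are known to make CNP, it had 0 UMIs in each library, which allows up to 2.20, 1.65 and 1.46 CPM in the WT, BMD and DMD libraries by the 3-count limit. No class could be said to make it at this depth.

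The higher Nppa level came with more nuclei carrying the transcript. At full depth, 14.9% of WT cardiomyocyte-like nuclei (13.3% to 16.5%) had an Nppa UMI, against 54.7% (52.2% to 57.2%) of BMD and 54.0% (50.9% to 57.0%) of DMD ones. In endothelial-like nuclei, which should lack it, the Nppa shares were 0.824%, 9.45% and 6.43%. These nuclei were shallower, with medians of 782, 1057.5 and 911 UMIs against 2760, 3765 and 3236 UMIs in cardiomyocyte-like nuclei. With each nucleus thinned to 500 UMIs, which left out none, the Nppa shares were 4.87%, 24.1% and 26.2% in cardiomyocyte-like nuclei and 0.571%, 3.91% and 3.87% in endothelial-like nuclei. For Nppb they were 13.8%, 30.9% and 31.4% in cardiomyocyte-like nuclei and 0.761%, 3.65% and 2.56% in endothelial-like nuclei.

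The transcripts were spread unevenly over the nuclei. Nuclei with at least 5 Nppa UMIs made up 3.35% of the WT cardiomyocyte-like nuclei, 25.4% in BMD and 23.3% in DMD. For Nppb the same shares were 4.92%, 29.3% and 24.1%. The 10% of nuclei with the most Nppa UMIs held 90.8% of them in WT, 57.7% in BMD and 52.8% in DMD. For Nppb the top 10% held 56.4%, 54.1% and 38.5%, and in BMD 1 nucleus alone held 10.0%. The share of the top 10% depends on the mean count, which for Nppa was 0.53, 3.89 and 3.21 UMIs a nucleus in WT, BMD and DMD. Its size was therefore not compared between libraries. In WT, then, Nppa sat in few nuclei and Nppb in more, and in BMD and DMD a larger part of the nuclei carried each.

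**Figure D2:**
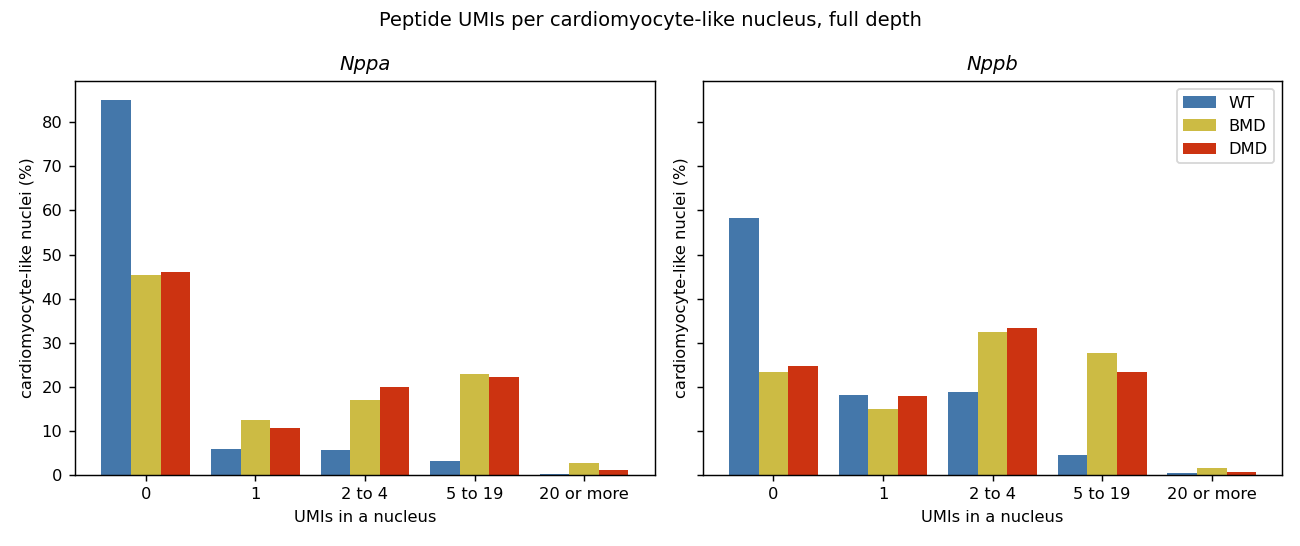
Share of cardiomyocyte-like nuclei (percent, bars from 0) by the number of Nppa or Nppb UMIs in the nucleus at full depth, for the WT, BMD and DMD libraries. Nuclei with 0 Nppa UMIs were 1729 of 2031 in WT, 687 of 1517 in BMD and 489 of 1063 in DMD.

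Nppa and Nppb were found in the same nuclei more often than their separate shares would give. At 500 UMIs a nucleus, 33 of 2031 WT cardiomyocyte-like nuclei had both, or 1.62% (1.12% to 2.27%). In BMD it was 154 of 1517, or 10.2% (8.68% to 11.8%), and in DMD 106 of 1063, or 9.97% (8.24% to 11.9%). These counts come from a random draw of UMIs, and the mean over draws was 1.87%, 10.5% and 11.3% in WT, BMD and DMD. The product of the 2 separate shares was 0.674%, 7.42% and 8.22%, so the joint share was 2.41, 1.37 and 1.21 times the product. That ratio has a ceiling that falls as the separate shares rise, so its size was not compared between libraries. Seen from Nppa, 33.3% of WT nuclei with Nppa also had Nppb (24.2% to 43.5%), against 12.8% of those without (11.4% to 14.4%). The same shares were 42.2% against 27.3% in BMD and 38.1% (32.39% to 44.1%) against 29.04% (25.9% to 32.36%) in DMD. In this draw the intervals did not overlap in any of the 3 libraries, in DMD by a narrow margin. In endothelial-like nuclei both were found in 0 of 1577, 1 of 1534 and 1 of 1992 nuclei.

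The joint share was also read by depth. When the cardiomyocyte-like nuclei of each library were split into 4 equal parts by their UMIs, without thinning, the joint share exceeded the product in all 12 parts, by 1.07 to 2.24 times. Each part still spans a range of depth, as from 503 to 2512 UMIs in the shallowest BMD part. Unequal depth within a part by itself raises the joint share above the product, so this split cannot show a link between the 2 transcripts. In WT the excess was 2.24 times in the shallowest part and 1.495 times in the deepest. In BMD it ran between 1.17 and 1.07 times and in DMD between 1.18 and 1.11 times. The ceiling of the ratio falls with depth too, as in the deepest BMD part, where 89.4% of the nuclei had Nppb. The sizes were therefore not compared between depths. At full depth 11.9%, 47.8% and 47.3% of the nuclei had both transcripts, and 55.3%, 16.4% and 18.1% had neither.

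**Figure D3:**
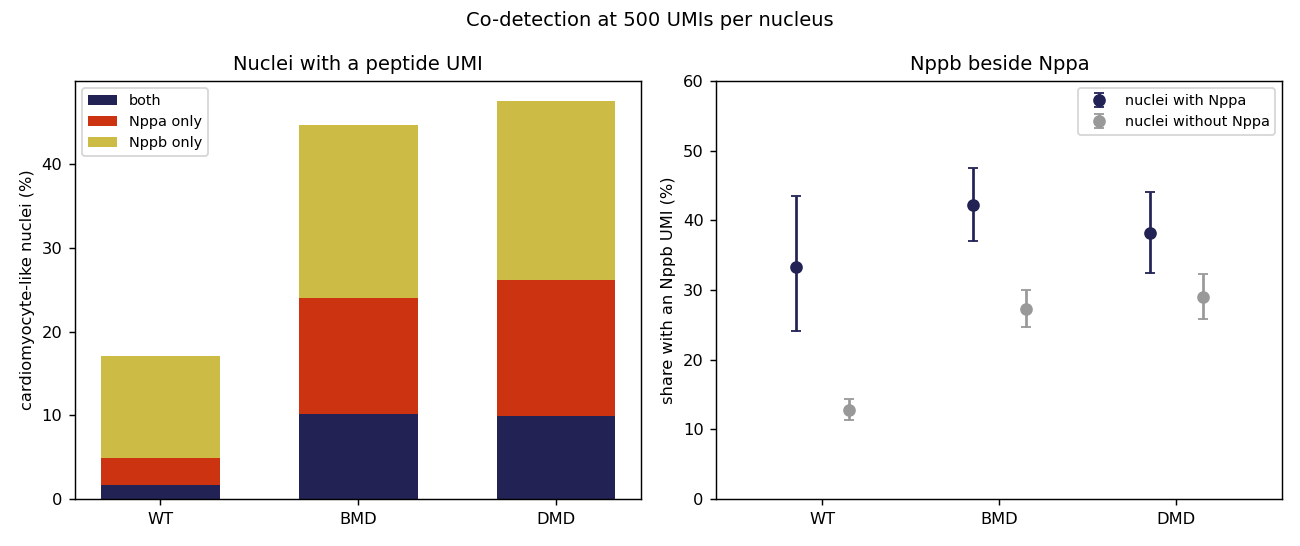
Cardiomyocyte-like nuclei thinned to 500 UMIs. Left, percent with both peptides, with Nppa only and with Nppb only, stacked from 0 for each library; right, percent of nuclei with an Nppb UMI among those with and without Nppa, with 95% Clopper-Pearson intervals. Nppb was found in 33.3%, 42.2% and 38.1% of the nuclei with Nppa.

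The balance of the 2 transcripts lay further toward Nppa in the dystrophic libraries. For each Nppb UMI, cardiomyocyte-like nuclei held 0.46 Nppa UMIs (0.43 to 0.50) in WT, against 0.77 (0.74 to 0.80) in BMD and 1.02 (0.98 to 1.07) in DMD. The counting intervals did not overlap, but they leave out the uneven spread of UMIs over nuclei. The BMD value includes the 1 nucleus with 767 of the 7665 Nppb UMIs, and its interval does not cover the effect of that nucleus. The free RNA held 0.53, 0.87 and 0.88. In endothelial-like nuclei the ratio was 1.58 (1.24 to 2.01) in BMD and 2.03 (1.60 to 2.57) in DMD, and in macrophage-like nuclei it was 2.33 (1.61 to 3.41) and 1.88 (1.21 to 2.96). These ratios were above those of the cardiomyocyte-like nuclei and of the free RNA of the same library. The part of free RNA in these ratios was not tested.

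Corin (ENSRNOG00000002302) differed least of the 6 members counted in cardiomyocyte-like nuclei. It had 1769 CPM in WT cardiomyocyte-like nuclei (1736 to 1802), and its BMD and DMD levels were 1630 CPM (1599 to 1661) and 1629 CPM (1589 to 1670). The log2 ratio was -0.12 in both comparisons, a small difference beyond counting error and within the 1.5-fold range. At 500 UMIs a nucleus, 51.9%, 49.97% and 48.6% of the cardiomyocyte-like nuclei had a Corin UMI. Corin detection could not be told apart between nuclei with and without Nppa, at 44.4% against 52.3% in WT, 47.4% against 50.8% in BMD and 50.4% against 48.0% in DMD, with overlapping intervals.

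A second class held Corin. Endocardial-like nuclei, the inner lining of the heart, had 694 CPM (588 to 815) in WT, against 737 CPM (638 to 847) in BMD and 675 CPM (600 to 758) in DMD, where free RNA would give 52.8, 42.0 and 32.2 CPM. Leaving out every endocardial-like nucleus with a UMI of any of the 11 cardiomyocyte markers kept 110 of 186 nuclei in WT, 41 of 164 in BMD and 100 of 283 in DMD, and the Corin level was then 791, 800 and 604 CPM. That check was added after the levels were seen. In pericyte-like nuclei Corin was at 155, 222 and 215 CPM against 58.5, 59.5 and 44.8 CPM from free RNA. Cardiomyocyte markers in that class summed to 693, 1470 and 1175 CPM, and their part in its Corin levels was not tested. Lymphatic-like nuclei had 344 CPM in WT against 104 and 112 CPM in BMD and DMD, but 5.62% of the WT nuclei carried it, and the free RNA share of that class was 24.3% in WT, 8.25% in BMD and 24.5% in DMD.

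Furin (ENSRNOG00000011352) was low and spread over many classes. In WT it ran from 16.4 CPM (13.4 to 19.8) in cardiomyocyte-like nuclei to 73.8 CPM (57.7 to 93.1) in macrophage-like nuclei, with fibroblast-like nuclei at 44.0, endothelial-like at 49.8 and pericyte-like at 61.9 CPM. Neighbours in that order overlapped from macrophage-like to endothelial-like nuclei, while the cardiomyocyte-like level lay below those of all these classes. In macrophage-like nuclei Furin was 38.7 CPM in BMD and 48.9 CPM in DMD, on 32 and 40 UMIs against 71 in WT. The log2 ratios were -0.85 (-1.58 to -0.31 without the pseudocount) and -0.55 (-1.19 to -0.015). Over the alternative settings they ran from -1.22 to -0.49 in BMD and from -0.71 to -0.18 in DMD. This class was chosen for its highest WT level, a choice that by itself lowers ratios over that WT value. In cardiomyocyte-like nuclei Furin was 9.11 CPM (6.95 to 11.7) in BMD and 14.1 CPM (10.6 to 18.4) in DMD, and the log2 ratio was -0.60 in BMD, just past 1.5-fold lower, and -0.17 in DMD. The BMD value fell short of 1.5-fold with the thinned counts of the aggregate (-0.56) and with TMM scaling (-0.57), and Furin was not counted at a minimum of 200 UMIs. It was lower in BMD than in WT in endothelial-like nuclei too, at 29.1 against 49.8 CPM, whereas DMD stood at 46.9 CPM.

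**Figure D4:**
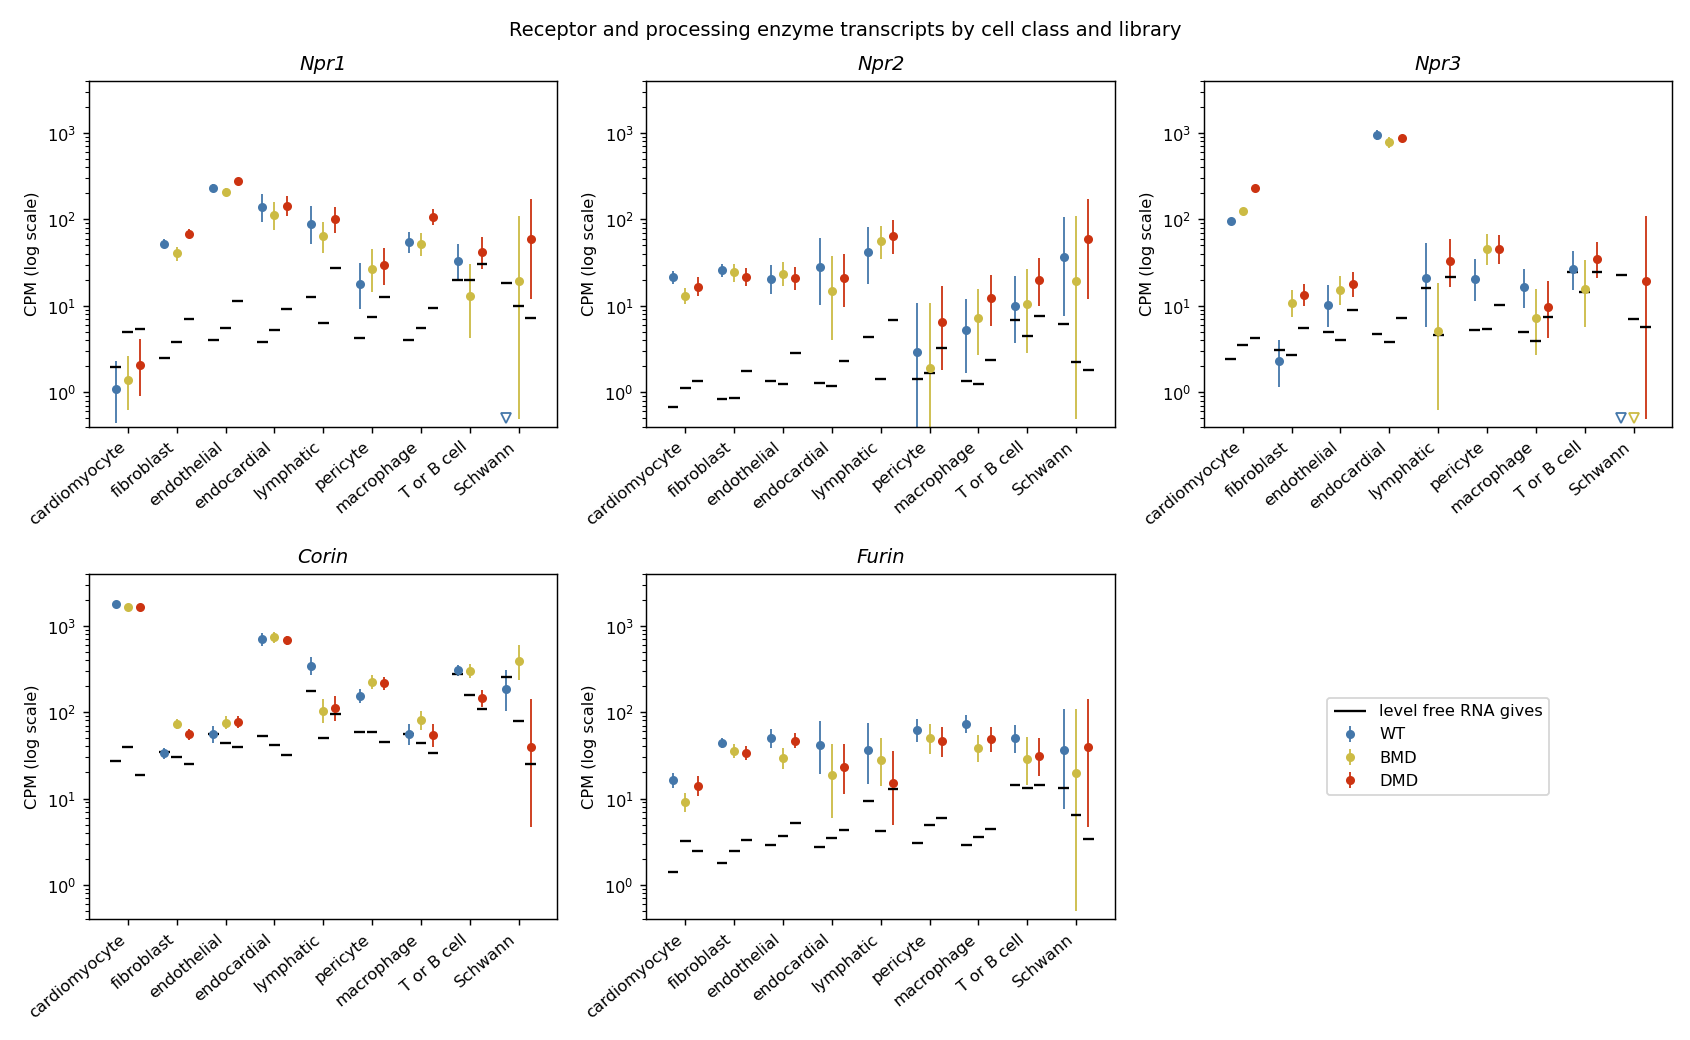
Npr1, Npr2, Npr3, Corin and Furin in CPM (log axis) for 9 cell classes in the WT, BMD and DMD libraries, with 95% Poisson intervals, open triangles for 0 UMIs and black dashes for the level free RNA gives. Npr1 is highest in endothelial-like nuclei (207 to 276 CPM) and Npr3 in endocardial-like nuclei (778 to 949 CPM).

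Npr1 (ENSRNOG00000014684) was the receptor of the vessel lining. It had 231 CPM in WT endothelial-like nuclei (206 to 258), and its BMD and DMD levels were 207 CPM (187 to 229) and 276 CPM (253 to 299). Endocardial-like nuclei followed with 139, 111 and 144 CPM, and the step from the first to the second class exceeded the intervals in each library. Lymphatic-like nuclei had 88.5, 63.5 and 100 CPM, macrophage-like nuclei 55.1, 51.97 and 106 CPM and fibroblast-like nuclei 52.4, 40.4 and 68.7 CPM, all above free RNA. The cardiomyocyte-like nuclei, which make the ligands, had 7, 9 and 8 Npr1 UMIs in all, or 1.10, 1.37 and 2.08 CPM, below the 1.97, 4.94 and 5.32 CPM that free RNA would give. No Npr1 above free RNA was therefore detectable in them. Endothelial-like nuclei held 40.7%, 56.4% and 48.6% of all Npr1 UMIs.

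Between libraries Npr1 differed little in its leading class. In endothelial-like nuclei the log2 ratio was -0.15 in BMD, with an interval around 0 (-0.38 to 0.06 without the pseudocount), and 0.25 in DMD (0.05 to 0.46). The direct DMD over BMD log2 ratio was 0.40 (0.22 to 0.60). A larger difference was found in macrophage-like nuclei, where DMD was 1.93-fold above WT (1.36 to 2.77, 87 against 53 UMIs) and BMD was 0.94-fold (0.62 to 1.44). Fibroblast-like nuclei were 1.31-fold above WT in DMD (1.09 to 1.57) and 0.77-fold in BMD (0.61 to 0.96). Endothelial markers in the DMD macrophage-like nuclei summed to 1412 CPM, against 681 CPM in WT and 718 CPM in BMD, and 25.2%, 14.0% and 8.75% of these nuclei were called doublets. The part of both in the macrophage value was not tested.

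The mural nuclei showed a split within the class. At a finer clustering (Leiden resolution 1.0), they separated into 200 smooth muscle-like and 1423 pericyte-like nuclei. Npr1 had 59.2, 66.4 and 99.001 CPM in the smooth muscle-like nuclei, on 5, 7 and 12 UMIs, against 8.06, 7.70 and 4.75 CPM in the pericyte-like nuclei, on 4, 3 and 2 UMIs. The intervals did not overlap in BMD and DMD and did so narrowly in WT (19.2 to 138 against 2.20 to 20.6).

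Npr2 (ENSRNOG00000015991) was low everywhere. It had 25.8, 24.4 and 21.7 CPM in fibroblast-like nuclei, 20.5, 23.6 and 21.0 CPM in endothelial-like nuclei and 21.4, 13.1 and 16.7 CPM in cardiomyocyte-like nuclei, all above the 0.665 to 2.85 CPM from free RNA. In pericyte-like nuclei it had 2, 1 and 4 UMIs. The lymphatic-like nuclei had the highest values, 41.7, 55.9 and 63.8 CPM, on 8, 22 and 21 UMIs. The interval of that class lay above the fibroblast-like one in BMD (35.0 to 84.6 against 19.1 to 30.8) and DMD (39.5 to 97.5 against 17.1 to 27.2) and overlapped it in WT. In cardiomyocyte-like nuclei Npr2 was 0.61-fold of WT in BMD (0.46 to 0.80) and 0.78-fold in DMD (0.57 to 1.05).

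Npr3 (ENSRNOG00000019184), the clearance receptor, had its highest level in the endocardial-like nuclei. It reached 949 CPM (824 to 1088) in WT, against 778 CPM (676 to 891) in BMD and 869 CPM (783 to 961) in DMD, with free RNA at 4.71, 3.79 and 7.28 CPM. At 500 UMIs a nucleus, 36.0%, 29.9% and 28.98% of the endocardial-like nuclei had an Npr3 UMI. With the nuclei that held a cardiomyocyte marker left out, the level was 980, 980 and 817 CPM. The log2 ratios of -0.28 in BMD and -0.13 in DMD have no settled direction: among nuclei with at least 1000 UMIs they were 0.11 and 0.25. In the same nuclei Npr1 was present too, and at 500 UMIs it was found in 8.96%, 8.16% and 8.54% of those with Npr3 and in 5.04%, 2.61% and 5.47% of those without, with overlapping intervals.

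The second site of Npr3 was the cardiomyocyte-like nuclei, where its summed level increased in the order WT, BMD, DMD. It had 95.3 CPM (87.9 to 103) in WT, against 126 CPM (118 to 135) in BMD and 228 CPM (214 to 244) in DMD, and none of the intervals overlapped. BMD was 1.32-fold above WT (1.19 to 1.47) and DMD 2.40-fold (2.16 to 2.66), and the direct DMD over BMD log2 ratio was 0.83 (0.72 to 0.995). Free RNA would give 2.45, 3.53 and 4.24 CPM. Leaving out the nuclei with UMIs of 9 endocardial markers, those low in cardiomyocyte-like nuclei of every library, gave 95.004, 128 and 228 CPM. Nuclei with UMIs of only the other endocardial markers were kept. The endocardial-like level was 9.96, 6.17 and 3.80 times that of the cardiomyocyte-like nuclei. The cardiomyocyte-like nuclei, which are more numerous and deeper, held 60.5%, 68.7% and 54.9% of all Npr3 UMIs, and the endocardial-like nuclei held 20.5%, 17.4% and 23.4%. At 500 UMIs a nucleus, 3.79% (3.0% to 4.72%) of WT cardiomyocyte-like nuclei had an Npr3 UMI. The share was 4.61% (3.61% to 5.79%) in BMD and 8.94% (7.29% to 10.8%) in DMD. By this share DMD lay above both others, while WT and BMD could not be told apart. Npr3 detection could not be told apart between nuclei with and without Nppa. At 500 UMIs it was found in 7.07% of WT nuclei with Nppa and 3.62% of those without, in 4.66% and 4.60% in BMD and in 7.19% and 9.55% in DMD, with overlapping intervals in each library.

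Elsewhere Npr3 was scarce. Fibroblast-like nuclei had 2.27, 10.9 and 13.4 CPM in the WT, BMD and DMD libraries (11, 32 and 47 UMIs), with free RNA at 3.10, 2.72 and 5.6 CPM. Pericyte-like nuclei had 20.6, 45.9 and 46.0 CPM (14, 24 and 28 UMIs). In pericyte-like nuclei free RNA would give 5.23, 5.37 and 10.1 CPM. The fibroblast-like level in WT was thus below that of free RNA, and only the DMD comparison in fibroblast-like nuclei reached the minimum of 50 UMIs. Cardiomyocyte markers were higher alongside, at 411, 745 and 650.1 CPM in fibroblast-like nuclei and 693, 1470 and 1175 CPM in pericyte-like nuclei, and their part in these Npr3 levels was not tested.

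**Figure D5:**
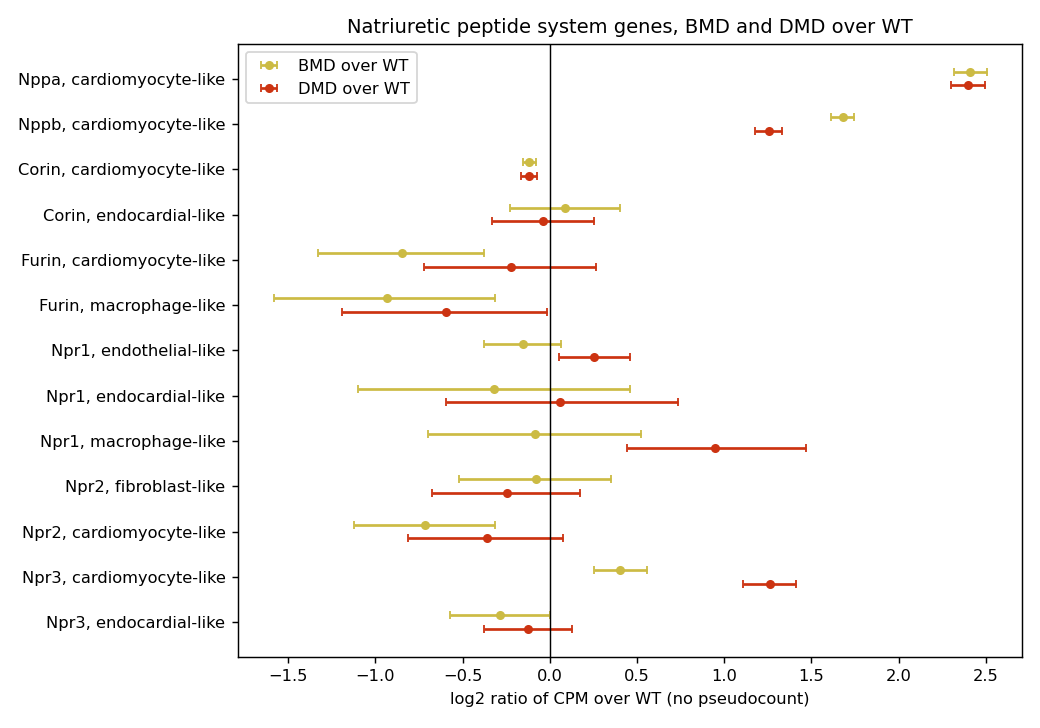
Log2 ratio of CPM over WT without a pseudocount (x axis), with 95% counting intervals, for members in chosen cell classes (y axis), for BMD and DMD. Nppa stands at 2.41 and 2.40, Nppb at 1.68 and 1.26 and Npr3 in cardiomyocyte-like nuclei at 0.40 and 1.26, while Corin in cardiomyocyte-like nuclei is at -0.12 in both; both comparisons use the same WT library.

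Members past 1.5-fold were also counted in fibroblast-like, endothelial-like, pericyte-like and endocardial-like nuclei. They were mainly the peptides, whose levels there lay near or below that of free RNA apart from Nppa in DMD endothelial-like nuclei. The remaining classes were not counted and have no background share. Past 1.5-fold there were, among others, Corin in lymphatic-like nuclei (log2 ratios of -1.68 in BMD and -1.57 in DMD) and Npr1 in DMD macrophage-like nuclei (0.89). In fibroblast-like nuclei 3 of 6 members (Nppa, Nppb and Corin) were higher in BMD, beside a background of 4.39% (6.45% lower), and 4 of 7 (these and Npr3) were higher in DMD, beside 3.71%. Corin there was at 72.9 CPM in BMD and 55.2 CPM in DMD, above the 30.2 and 24.8 CPM from free RNA. Cardiomyocyte markers in fibroblast-like nuclei summed to 411, 745 and 650 CPM in WT, BMD and DMD. Their part in these Corin levels was not tested. In endothelial-like nuclei 2 of 6 were higher (Nppa and Nppb, background 3.41%) and 1 lower (Furin, background 5.28%) in BMD, and 3 of 7 were higher in DMD (Nppa, Nppb and Npr3, background 3.86%). Npr3 passed there narrowly, at a log2 ratio of 0.60 on 14 and 37 UMIs, and without the pseudocount its 1.76-fold ratio had an interval that held 1 (0.929 to 3.52). Its levels were 10.3, 15.4 and 18.1 CPM, where free RNA would give 4.95, 3.98 and 8.97 CPM. In pericyte-like nuclei 1 of 3 was higher in each, Nppa, beside 5.5% (7.49% lower) in BMD and 5.69% in DMD. In endocardial-like nuclei none of 3 (Npr1, Npr3 and Corin) passed, beside 7.76% higher and 8.18% lower in BMD and 7.83% and 5.95% in DMD.

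Genes around the peptide system were read from lists of pathway members, counted here in cardiomyocyte-like nuclei. Among transcription factors known to act on Nppa or Nppb, 4 of 16 with enough UMIs (Tbx20, Jun, Fos and Atf3) were higher and 2 (Gata6 and Mef2c) lower in BMD, and 3 of 13 were higher and 1 lower in DMD, with median log2 ratios of 0.04 and 0.07. Over all genes 4.6% were higher and 5.25% lower in BMD, and 5.87% and 6.54% in DMD, with medians of -0.05 and -0.04. Tbx20, a T-box factor, had 525, 797 and 863 CPM in the WT, BMD and DMD libraries. The immediate early genes Jun (30.4, 113 and 77.1 CPM) and Fos (4.41, 57.2 and 17.2 CPM) were higher in both. Mef2c, a MADS-box factor, was lower in both, at 653, 432 and 293 CPM. Gata6 was lower in BMD only by this threshold, at 459, 275 and 373 CPM, and Gata4, at 532, 759 and 752 CPM, stayed within 1.5-fold in both. Tead1 had 1111, 1148 and 1126 CPM.

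Of the cGMP signalling list, 7 genes had enough UMIs in cardiomyocyte-like nuclei. In BMD 2 were higher, the myosin phosphatase subunit Ppp1r12a (680 against 1260 CPM) and Rgs2, beside a background of 4.6%, and in DMD 0 passed, beside 5.87%. Neither passed a fold of 2. The median log2 ratio of the list was 0.34 in BMD and 0.42 in DMD, against -0.05 and -0.04 over all genes. Prkg1, the main cGMP-dependent kinase of muscle, was not analysed here. The soluble guanylyl cyclase subunits, which answer to nitric oxide, lay mainly in pericyte-like nuclei (Gucy1a1 at 1435, 1626 and 1268 CPM). Gucy1a1 in fibroblast-like nuclei was lower in both dystrophic libraries, at 189, 78.7 and 86.4 CPM.

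Of 6 phosphodiesterases, which break down cyclic nucleotides, 1 was higher in BMD (Pde1c, background 4.6%) and 2 in DMD (background 5.87%), and 1 was lower in DMD (background 6.54%). Pde11a had 19.7, 26.4 and 97.7 CPM in the WT, BMD and DMD libraries, and Pde3b had 5.04, 7.29 and 23.4 CPM. Pde2a, which cGMP activates, had 57.5, 44.6 and 32.8 CPM. Pde5a had 4, 1 and 4 UMIs in cardiomyocyte-like nuclei and stood at 177, 203 and 235 CPM in pericyte-like nuclei.

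Of the genes for other convertases and for peptide breakdown, 4 had enough UMIs in cardiomyocyte-like nuclei and 0 passed in either comparison. Ide, the insulin-degrading enzyme, which also cleaves natriuretic peptides, had 213, 282 and 307 CPM there. Mme (neprilysin), another such protease, was a fibroblast gene at 19.8, 9.84 and 7.15 CPM (96, 29 and 25 UMIs) and was lower in both. Ostn, a ligand of Npr3, had 0 UMIs in cardiomyocyte-like nuclei of all 3 libraries. Of the Gi subunits that Npr3 is known to couple to, Gnai2 and Gnai3 had enough UMIs and 0 passed.

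Pathway genes past 1.5-fold in the same direction in both dystrophic libraries were also found in other classes. Over all genes, 2.45% to 8.18% stood past 1.5-fold in a given direction, class and comparison there. Both comparisons use the same WT library, and the number of pathway genes tested in each class is not set beside these genes. They are listed as a description. In endothelial-like nuclei Gata4 (17.6, 41.2 and 38.6 CPM) and Tbx20 (28.6, 58.8 and 45.4 CPM) were higher. Free RNA would give 18.9, 24.8 and 28.5 CPM of Gata4 and 27.5, 31.0 and 35.9 CPM of Tbx20 there, so the WT levels lay near it. Cardiomyocyte markers in the same nuclei summed to 657, 1088 and 1042 CPM, and their part was not tested. In pericyte-like nuclei the potassium channel gene Kcnma1 (42.8, 86.0 and 77.2 CPM), Pde6d (76.7, 128 and 133 CPM) and Myocd, a muscle coactivator (54.6, 260 and 96.9 CPM), were higher. Free RNA would give 58.0, 66.6 and 32.3 CPM of Myocd in this class, so its WT level lay below that of free RNA. That class held smooth muscle nuclei as well, and the finer clustering placed 65, 67 and 68 nuclei of the WT, BMD and DMD libraries in the smooth muscle-like cluster, against 601, 375 and 447 in the pericyte-like one. Within the smooth muscle-like nuclei Kcnma1 was at 296, 417 and 355 CPM, with overlapping intervals, and it had 4, 1 and 4 UMIs in the pericyte-like ones. Myocd was at 213, 835 and 289 CPM in smooth muscle-like nuclei and 38.3, 118 and 54.7 CPM in pericyte-like nuclei, with the BMD interval above that of WT in both and the DMD interval overlapping it. The part of the smooth muscle share in the class values was not tested. In fibroblast-like nuclei Pln (phospholamban, a heart muscle gene) had 52.8, 90.6 and 83.3 CPM, where free RNA would give 51.6, 95.5 and 74.8 CPM, so the higher dystrophic values were not read as expression. In endocardial-like nuclei Pde10a was lower, at 204, 55.6 and 97.8 CPM.

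Over 30 pairs of class and library, the monocyte-like class included, the genes most like each member in log2 level were found among 12440 genes. These points share libraries and classes, so the likeness is a description. Closest to Nppa were Acta1 (r = 0.87), Nppb (0.86) and Actc1 (0.86), and closest to Nppb were Ankrd1 (0.97), Actc1 (0.96) and Myl3 (0.96). Npr1 was closest to Tek (0.95), Klf3 (0.91) and Zbtb46 (0.91), and Npr3 to Kank1 (0.88), Plcd3 (0.86) and Cxcl17 (0.83). Corin was closest to Parm1 (0.94), Arhgap44 (0.94) and Cntnap1 (0.92). For Npr2 and Furin the nearest genes were Htra1 (0.76) and Prcp (0.79), and for Nppc, with its few UMIs, Pcdhgb7 (0.73).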

How the data were processed

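The values used are raw UMI counts per gene and barcode, deposited by the authors as sparse matrices of all barcodes. The submitters' processing notes name Cell Ranger and rn6, and the file headers name version 6.0.1 for the WT file and 4 for BMD and DMD. The deposited counts of the WT file are an aggregate of 3 libraries, from which only its WT barcodes were taken. In it the BMD and DMD barcodes held 76.1% and 92.9% of the UMIs of their own files, so WT may have been thinned too. The study names both a 3′ and a 5′ kit. Levels of different genes were set against each other as Nppa UMIs per Nppb UMI, read across classes and libraries. The shares of WT nuclei with Nppa and with Nppb were also set side by side, and the effect of the kit on them was not tested. Lower detection limits rest on 3 counts.

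The 8 members, the pathway lists and the marker lists were chosen with earlier results of these data known, and the rules that leave clusters unnamed were set after the data were seen. Barcodes with at least 500 UMIs were clustered together (scanpy 1.11.5, 2000 variable genes, 30 components, 15 neighbours, Leiden resolution 0.5) without the members, pathway genes, mitochondrial or sex genes. A name needed 3 markers at 2 times their level elsewhere. Scrublet called 8.20%, 5.06% and 10.6% of nuclei doublets, and these were kept in the main setting. UMIs were summed per class and library and divided by the class total (CPM). Ratios used CPM plus 5, and their intervals, exact and conditional (scipy 1.17.1), have no pseudocount. Genes with at least 50 UMIs over the libraries compared were counted past 1.5-fold. Free RNA came from barcodes with at most 50 UMIs, scaled by markers of other classes. Named genes were the 8 members, pathway genes past 1.5-fold the same way in both comparisons, at most 4 others (Tead1, Ide, Ostn, Pde5a) and the 3 nearest look-alikes of each member; further pathway genes were named after their values were seen. Prkg1 and Irag1 were not analysed here. The counting was tested on simulated data for 22250 genes: in cardiomyocyte-like nuclei 86.8% of genes changed 2-fold passed 1.5-fold in the BMD comparison and 88.3% in the DMD comparison. Of the unchanged genes, 0.0424% and 0.11% passed. The simulated counts were Poisson draws without spread between nuclei or animals, so they cover counting error only. TMM factors came from edgeR 4.0.16. Alternatives covered the UMI minimum, doublets, mitochondrial share, clustering, the thinned aggregate, free RNA, scaling, pseudocount and thinning.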

Additional observations from a re-analysis of the deposited data

Results flagged for a closer look

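Corin was lower than in WT in 2 classes and higher in 3, in BMD and in DMD alike and with these intervals off 0, and the difference between classes was not tested. Its log2 ratio over WT without a pseudocount (BMD, then DMD) was -0.12 and -0.12 in cardiomyocyte-like nuclei, and -1.72 and -1.61 in lymphatic-like nuclei. It was 1.13 and 0.73 in fibroblast-like nuclei, 0.44 and 0.48 in endothelial-like nuclei and 0.52 and 0.47 in pericyte-like nuclei. Cardiomyocyte markers were also higher there in BMD and DMD. For WT, BMD and DMD they summed to 411, 745 and 650 CPM in fibroblast-like nuclei and 657, 1088 and 1042 CPM in endothelial-like nuclei. In pericyte-like nuclei they summed to 693, 1470 and 1175 CPM. The part of these markers in the Corin ratios was not tested. In WT fibroblast-like and endothelial-like nuclei Corin stood at 33.2 and 55.7 CPM, where free RNA gives 34.7 and 55.4 CPM, and in lymphatic-like nuclei 66 UMIs came from 5.62% of the 160 WT nuclei. The other classes did not share this pattern: the BMD and DMD folds over WT were 1.47 and 0.98 in macrophage-like nuclei, 0.99 and 0.47 in T or B cell-like nuclei, 1.08 and 0.75 in monocyte-like nuclei and 2.11 and 0.21 in Schwann-like nuclei (15, 20 and 2 UMIs), and in endocardial-like nuclei the intervals held 0 on the log2 scale.

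Nuclei of the unnamed clusters, which no comparison used, carried both peptides, at higher levels in BMD and DMD than in WT. Nppa stood at 76.2, 627 and 422 CPM in WT, BMD and DMD, and Nppb at 157, 419 and 422 CPM. Most of it lay in 2 clusters. The cluster of 583 nuclei, 87.7% of them called doublets, had Nppa at 86.8, 536 and 456 CPM and Corin at 1374, 1363 and 1124 CPM. The cluster of 347 nuclei led by mitochondrial genes had Nppa at 654, 3077 and 1397 CPM and Nppb at 512, 600 and 1079 CPM, with Corin at 227, 51.1 and 249.04 CPM. The free RNA profile itself had Nppa at 151, 1308 and 893 CPM and Nppb at 283, 1503 and 1020 CPM. Nppa in this cluster thus stood above that profile in each library, and the source was not tested.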

How the results depend on the processing

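The genotype was carried by 1 library each, so spread between animals was not measured, and for Nppc, Npr2 and Furin depth limited what could be seen. No paired analysis was possible because there was 1 library per genotype. Of 45 results under 18 alternative settings, 407 recomputed values were counted as the same, 37 as moved and 1 as changed in direction, which needed a main interval off 0. For shares, the same meant within the main interval. For log2 ratios, that interval was first centred on the main value with its pseudocount. Counts of pathway genes have no interval and were called the same within 1.5-fold. Where a value moved, the cause was not tested unless the setting itself shows it. Among nuclei with at least 1000 UMIs, the Npr3 log2 ratio in endocardial-like nuclei turned from -0.28 to 0.11 in BMD and from -0.13 to 0.25 in DMD. Small values with an interval around 0 also took both signs over the alternatives: Corin in endocardial-like nuclei ran from -0.11 to 0.29 in BMD and from -0.39 to 0.080 in DMD, and Npr2 in fibroblast-like nuclei from -0.099 to 0.070 in BMD. The lower Furin call in BMD cardiomyocyte-like nuclei was lost with the thinned counts of the aggregate and with TMM scaling (-0.56 and -0.57). With the minimum of 1000 UMIs a nucleus, the DMD log2 ratio of cardiomyocyte-like over endothelial-like nuclei was 3.22 for Nppa and 4.38 for Nppb. The Npr3 log2 ratio of endocardial-like over cardiomyocyte-like nuclei was then 2.90 in WT. With the same minimum, both peptides were found in 2.31% of WT and 12.0% of DMD nuclei. Thinning to 1000 UMIs gave 4.83%, 22.1% and 24.0%, and no thinning 11.9%, 47.8% and 47.3%, for WT, BMD and DMD. With free RNA subtracted, the log2 ratio of cardiomyocyte-like over endothelial-like nuclei was 5.12, 6.19 and 5.19 for Nppa and 6.22, 7.84 and 7.43 for Nppb. For Nppa in DMD the same log2 ratio was 3.18 with members and pathway genes in the clustering and 3.23 with the thinned counts of the aggregate. The Nppa log2 ratio of DMD over WT was 2.23 without nuclei over 5% mitochondrial UMIs and 2.55 as a mean over nuclei. It was 2.24 without nuclei holding any of the 9 endocardial markers low in cardiomyocyte-like nuclei. Nppb in BMD was 1.40 as a mean over nuclei and 1.54 without the nucleus with the most UMIs. Corin in BMD was -0.070 by TMM scaling and -0.066 as a mean over nuclei. Removing doublets gave an Npr3 log2 ratio of endocardial-like over cardiomyocyte-like nuclei of 2.12 in DMD, and leaving out nuclei with markers of the other class gave 2.89 in BMD. The latter setting also gave Corin in endocardial-like nuclei a log2 ratio of -0.39 in DMD, and 1.44 for cardiomyocyte-like over endocardial-like nuclei in DMD. At Leiden resolution 1.0 the Furin log2 ratio of macrophage-like over cardiomyocyte-like nuclei was 1.37 in WT and 0.81 in DMD. Pathway genes past a fold of 2 were 3 higher and 0 lower in BMD and 1 lower in DMD, and at 200 UMIs or more 3 were higher in DMD. Leaving out nuclei with markers of the other class, or the nucleus with the most UMIs, was chosen after seeing the data.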
